A study of Mus musculus with 6 samples.

Results

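Imprinted genes are transcribed mainly from the allele inherited from one parent. The 39 imprinted genes described here, *Peg3*, *Zim1* and their neighbours among them, were chosen by name from a list of mouse imprinted genes. The choice was made with earlier results of these data known, so shares of the list do not test it. The genes were followed across all 6 arrays of the series. Of the 39, 33 have a probe set that the platform annotation pairs with that gene alone, and all further values concern these 33. *Snrpn*, *Gnas* and *Ube3a* are paired only with probe sets that also carry other gene names, and no probe set is paired with *H19*, *Zrsr1* or *Slc22a3* in the annotation used, so these 6 genes were not analysed here.

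Dorsal skin was taken from 3 *Bmal1*-/- mice, which lack the clock transcription factor BMAL1 in every tissue, and from 3 *Bmal1*+/- littermates, which carry 1 intact allele and served as controls. The line is on a C57BL/6J background, no wild-type mouse was profiled, and all 6 samples were staged as telogen, when hair follicles rest. The age label is postnatal day 22 for every mouse, although *Bmal1*+/- replicate 1, the only male, is given as day 23 in its source label. The RNA of each mouse was hybridised to its own Affymetrix Mouse Gene 1.0 ST array, whose probe sets report the summed signal of both alleles, so the parental origin of a transcript was not measured.

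The levels below are deposited probe set intensities on a linear scale, and a fold change is the difference in log2(intensity + 16), *Bmal1*-/- minus *Bmal1*+/-, from limma over the 23410 probe sets with a gene name, two-sided and with Benjamini-Hochberg adjustment. On this scale the difference of a dim gene is understated. Median intensities of the arrays lay between 219 and 235.5. Dorsal skin was identifiable by its markers, with *Krt14* of the basal epidermis between 5043 and 6345 and *Col1a1* of dermal fibroblasts between 15290.1 and 18834, while the inner root sheath keratin *Krt25*, made in growing follicles, lay between 53.3 and 164. The targeted gene, listed as *Arntl*, had intensities of 325 to 365 in *Bmal1*+/- and 569 to 664 in *Bmal1*-/- skin (log2 fold change 0.79, adjusted p = 0.0037 from limma), and since the sources used here do not place its probes relative to the deletion, it does not check the labels.

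Most imprinted genes lie in clusters, in which a stretch of DNA methylated on the allele of one parent sets the expression of several neighbours. Many of them act on growth before and shortly after birth, and a group that includes *Plagl1*, *Igf2*, *Dlk1*, *Peg3*, *Mest* and *Cdkn1c* is known as the imprinted gene network because its members tend to be expressed together and decline as tissues mature. In the *Peg3* cluster, *Peg3* and *Usp29* are transcribed from the paternal allele in opposite directions out of a shared control region, and *Zim1*, which encodes a zinc finger protein, is transcribed from the maternal allele.

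At an adjusted p under 0.05 from limma, 0 of the 33 imprinted genes were called, where 0.231% of all probe sets tested were called. At an unadjusted p under 0.05, 5 of the 33 were higher and 1 was lower in *Bmal1*-/- skin, 6 in all, against 4.17% and 4.6%, or 8.77% in all, of the probe sets tested. At an unadjusted p under 0.001 from limma, *Zim1* and *Peg3* were higher and *Mest* was lower, where 0.252% of all probe sets were higher and 0.397% lower, 0.649% in all. The study set its threshold at the same number, but on the p of another test, Cyber-T. A regularised test built after Cyber-T, the kind of test the study ran, called the same 3 genes at an adjusted p under 0.05, with adjusted p of 0.00019 for *Zim1*, 0.00055 for *Mest* and 0.0039 for *Peg3*. That test called 1.17% of all probe sets, 0.41% higher and 0.756% lower. The median log2 fold change of the 33 genes was 0.057, beside 0.014 over all probe sets, and 24 of the 33 (72.7%) lay above 0, beside 54.7% of all probe sets. With each array centred on its median, 25 of the 33 did, beside 58.8%. In whole skin, a difference in the number of cells of a type and one in the RNA per cell cannot be told apart.

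The largest mean ratio among the imprinted genes was that of *Zim1* (probe set 10559790). Its intensity was 441, 474 and 593 in *Bmal1*+/- mice, against 873, 829 and 1392 in *Bmal1*-/- mice. Every *Bmal1*-/- mouse lay above every *Bmal1*+/- mouse, and replicate 3 was the highest of each genotype. The means were 503 ± 79.9 and 1031 ± 313 (SD, n = 3 mice each), a ratio of 2.05. The log2 fold change was 0.98 (SE 0.18, 95% interval 0.58 to 1.39, unadjusted p = 0.00035, adjusted p = 0.091 from limma). Without *Bmal1*-/- replicate 3, the highest mouse, it was 0.75, with an adjusted p of 0.078.

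*Peg3* (probe set 10559796), a large zinc finger protein known for its part in growth, maternal behaviour and the stress response of cells, had intensities of 1399.7, 1199 and 1411 in *Bmal1*+/- mice, against 1879, 1694 and 2253 in *Bmal1*-/- mice. The genotypes did not overlap here either, and *Bmal1*-/- replicate 3 was again the highest and replicate 2 the lowest of its genotype. The means were 1336 ± 119 and 1942 ± 285, a ratio of 1.45 and a log2 fold change of 0.53 (SE 0.10, 95% interval 0.29 to 0.76, unadjusted p = 0.00059, adjusted p = 0.12 from limma).

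*Usp29* (probe set 10549879), which encodes a deubiquitinating enzyme and shares its promoter region with *Peg3*, had low signals. They were 94.6, 93.1 and 109.6 in *Bmal1*+/- and 124, 112 and 118 in *Bmal1*-/- skin. The order of the genotypes was the same as for *Peg3* and *Zim1*, but the lowest *Bmal1*-/- mouse lay close to the highest *Bmal1*+/- mouse. The log2 fold change was 0.22 (SE 0.10, 95% interval -0.0028 to 0.45, unadjusted p = 0.052, adjusted p = 0.58 from limma).

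The genes of the cluster were also compared with each other. Within each array, log2(intensity + 16) of *Zim1* minus that of *Peg3* averaged -1.39 ± 0.21 in *Bmal1*+/- and -0.93 ± 0.21 in *Bmal1*-/- mice, a difference of 0.46. For *Usp29* minus *Peg3* the averages were -3.55 ± 0.11 and -3.86 ± 0.19, a difference of -0.31. For each comparison the values of the genotypes did not overlap, with a two-sided exact permutation p = 0.1, the smallest that 3 mice against 3 allow. These within-array comparisons were chosen after the values had been seen, and 3 were made, each with a Benjamini-Hochberg adjusted p of 0.1.

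**Figure D1:**
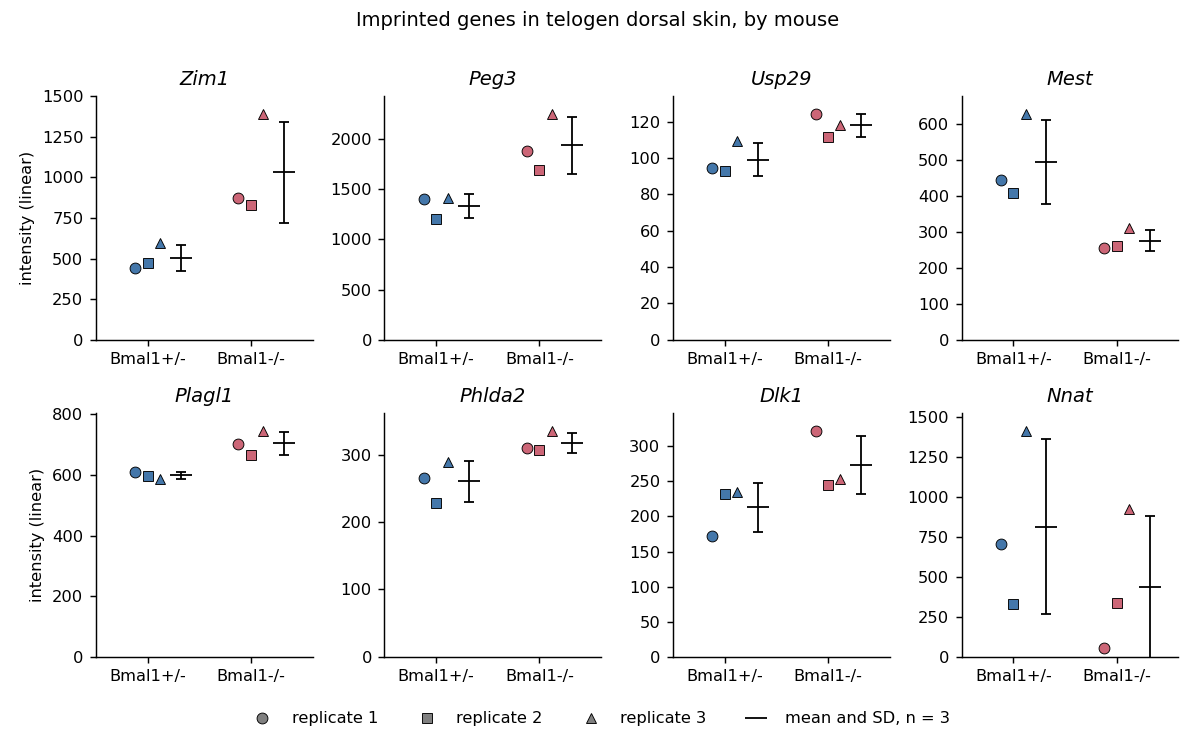
Deposited probe set intensity (vertical axis, linear, from 0) of 8 imprinted genes in each mouse, with *Bmal1*+/- in blue, *Bmal1*-/- in red, 1 symbol per replicate number, and the mean and SD (n = 3) beside the points. The genotypes separate for every gene but *Nnat*, whose values run from 54.5 to 1412 and whose lower SD bar in *Bmal1*-/- skin is cut off at 0, while *Mest* is the only other one with lower values in *Bmal1*-/- skin.

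The starts of these genes are printed because the 3 neighbours had higher means in *Bmal1*-/- skin and 2 of them share a promoter region. RefSeq gives 1 window of 300 bases (250 before and 50 after the start, build GRCm38.p6) for each of the 3. The window of *Peg3*, at chr7:6730370-6730669 on the minus strand, and that of *Usp29*, at chr7:6730333-6730632 on the plus strand, hold 263 bases in common, read in opposite directions. The capitals mark those shared bases in the *Peg3* window. The window of *Zim1*, at chr7:6696383-6696682 on the minus strand, overlaps neither, and capitals mark there the letters TGCCGC on either strand, the core bound by ZFP57, a zinc finger protein that keeps imprints methylated.
Peg3: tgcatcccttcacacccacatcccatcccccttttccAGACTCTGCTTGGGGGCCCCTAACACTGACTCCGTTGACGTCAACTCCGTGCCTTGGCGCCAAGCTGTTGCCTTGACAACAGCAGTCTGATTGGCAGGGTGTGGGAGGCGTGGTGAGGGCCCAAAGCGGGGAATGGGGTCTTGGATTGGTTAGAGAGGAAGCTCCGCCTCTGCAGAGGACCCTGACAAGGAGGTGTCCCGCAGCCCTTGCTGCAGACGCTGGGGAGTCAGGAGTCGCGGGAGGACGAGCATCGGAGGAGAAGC
Zim1: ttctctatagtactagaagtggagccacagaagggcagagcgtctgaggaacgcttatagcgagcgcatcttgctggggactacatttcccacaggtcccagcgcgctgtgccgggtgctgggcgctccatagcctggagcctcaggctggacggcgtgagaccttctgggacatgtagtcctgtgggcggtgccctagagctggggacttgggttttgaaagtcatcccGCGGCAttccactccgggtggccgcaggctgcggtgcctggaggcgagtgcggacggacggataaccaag

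The letters CACGTG, the E-box bound by CLOCK/BMAL1, are in neither window and not in that of *Usp29*. A window with CACGTG was found for 5 of the 31 imprinted genes that RefSeq gives a window (*Igf2r*, *Mcts2*, *Osbpl5*, *Plagl1* and *Ppp1r9a*), or in 5 of their 50 windows (10%), where 7.15% of all 32851 windows hold it. TGCCGC on either strand was in 13 of the 50 windows (26%) against 11.61% of all windows. GCCAT on either strand, the core of the YY1 site, was in 23 of the 50 (46%) against 40.52%. The 3 motifs are searched by their letters alone and such matches are a description of the windows. *Rtl1*, *Cdkn1c*, *Dcn*, *Kcnq1*, *Peg10*, *H19*, *Sgce* and *Impact* have no window in the table used.

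The genes next to the *Peg3* cluster were looked at after its values were known. Of the 10 measured genes on each side of *Zim1* in RefSeq order, 18 are not imprinted genes of the list, mostly olfactory receptors and zinc finger genes. None of the 18 was called at an adjusted p under 0.05 from limma, and 2 had an unadjusted p under 0.05, beside 8.77% of all probe sets. The 2 were *Olfr5* and *Olfr1349*, olfactory receptor genes with means of 46.2 and 182 in *Bmal1*+/- and of 69.2 and 211.5 in *Bmal1*-/- skin. Log2 fold changes of the 18 ran from -0.15 to 0.46, the largest that of *Olfr5*, with a median of 0.038. The olfactory receptor genes next to *Zim1*, from *Olfr1336* to *Olfr1350*, all lay above 0, at 0.048 to 0.46, beside 0.22 for *Usp29*. *Bmal1* lies on chromosome 7 as well, and 14 of the 33 imprinted genes share that chromosome. The nearest of them, *Igf2*, is 383 measured genes away from *Bmal1*, and *Zim1* is 1228 away.

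*Mest* (probe set 10537062), a paternally expressed gene of the hydrolase family known for its variable expression in expanding fat, was the imprinted gene with the clearest difference in the other direction. Its intensity was 446, 409 and 629 in *Bmal1*+/- mice, against 257, 260.4 and 311 in *Bmal1*-/- mice. All *Bmal1*-/- mice lay below all *Bmal1*+/- mice, and replicate 3 was the highest of each genotype. The means were 495 ± 118 and 276 ± 30.1, a ratio of 0.558 and a log2 fold change of -0.79 (SE 0.15, 95% interval -1.12 to -0.46, unadjusted p = 0.00037, adjusted p = 0.096 from limma). Without *Bmal1*+/- replicate 3 the log2 fold change was -0.61, with an adjusted p of 0.10.

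The neighbours of *Mest* had smaller differences. *Copg2* (probe set 10543737), a coatomer subunit gene that runs towards *Mest* from the other side and is expressed mainly from the maternal allele in some tissues, had 2279, 2085 and 2199 in *Bmal1*+/- and 2000.0, 2133 and 1966 in *Bmal1*-/- skin. These ranges overlapped, and the log2 fold change was -0.10 (adjusted p = 0.66 from limma, SE 0.06). Within each array, *Mest* minus *Copg2* averaged -2.13 ± 0.31 in *Bmal1*+/- and -2.82 ± 0.19 in *Bmal1*-/- mice on the log2 scale, with no overlap (two-sided exact permutation p = 0.1, n = 3 mice each). Over the 19 measured genes among the 10 on each side of *Mest* that are not in the list, the median log2 fold change was -0.0066 and none was called. Of the 19, 2 had an unadjusted p under 0.05 from limma, beside 8.77% of all probe sets. They were *Cep41* and *Tmem209*, with log2 fold changes of -0.22 and -0.13.

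The microRNA gene *Mir335* lies inside *Mest* and has a probe set of its own (10537076), looked at after the values of *Mest*. Its intensity averaged 174.7 ± 17.5 in *Bmal1*+/- against 174.1 ± 9.68 in *Bmal1*-/- mice (n = 3 each, SD), which gave a log2 fold change of -0.0023 (adjusted p = 1.0 from limma, SE 0.10). The probe sets of the nearby microRNA genes *Mir29a*, *Mir29b-1* and *Mir183* averaged 25.1, 32.6 and 11.4 in *Bmal1*+/- skin. The mature sequences from RefSeq (GRCm38.p6, plus strand, chr6:30741314-30741336 and chr6:30741354-30741375) are printed because the probe set of the microRNA gene and that of its host gene gave different readings. The seed, bases 2 to 8, is in capitals. The array does not distinguish the mature forms from their precursor, and whether it read the mature forms at all was not tested.
mmu-miR-335-5p: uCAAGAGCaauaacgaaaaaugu
mmu-miR-335-3p: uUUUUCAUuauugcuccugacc

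RefSeq places starts of *Mest* at 2 separate sites, and the sources used here do not say which of them the probe set reads. The upstream window, chr6:30733256-30733555, holds no CACGTG and no TGCCGC. The downstream window, chr6:30737800-30738099, holds TGCCGC on the minus strand at 2 places, shown in capitals, and no CACGTG. RefSeq has a further window for *Mest* that lies 3 bases downstream of the latter.
Mest, upstream start: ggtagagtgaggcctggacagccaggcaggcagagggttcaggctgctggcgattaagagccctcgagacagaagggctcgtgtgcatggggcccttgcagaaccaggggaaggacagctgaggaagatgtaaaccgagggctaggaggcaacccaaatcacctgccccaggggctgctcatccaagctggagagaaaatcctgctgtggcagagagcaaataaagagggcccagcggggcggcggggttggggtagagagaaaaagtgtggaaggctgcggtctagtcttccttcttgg
Mest, downstream start: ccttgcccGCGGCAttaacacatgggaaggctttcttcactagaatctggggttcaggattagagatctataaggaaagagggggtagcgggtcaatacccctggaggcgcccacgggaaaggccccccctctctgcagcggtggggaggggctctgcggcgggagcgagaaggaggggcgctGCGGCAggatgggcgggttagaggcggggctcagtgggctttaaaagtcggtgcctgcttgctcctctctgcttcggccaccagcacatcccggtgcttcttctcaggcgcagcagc

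Among the growth regulators, *Plagl1*, *Phlda2* and *Dlk1* had unadjusted p values under 0.05, each with separated genotypes. *Plagl1* (probe set 10361771) encodes a zinc finger transcription factor that restrains the cell cycle and controls other genes of the imprinted network. Its intensity was 611, 597 and 588 in *Bmal1*+/- and 702, 667 and 745 in *Bmal1*-/- skin, so that every *Bmal1*-/- mouse was above the narrow *Bmal1*+/- range. The means were 599 ± 11.6 and 705 ± 39.0, a log2 fold change of 0.23 (SE 0.07, 95% interval 0.08 to 0.37, unadjusted p = 0.0062, adjusted p = 0.32 from limma). The *Plagl1* window, chr10:13090582-13090881 on the plus strand, is printed because, of the 12 genes with separated genotypes, only *Plagl1* and *Mcts2* have a window with CACGTG (*Peg10* has no window). Of all 31 genes with a window 5 hold it, and *Igf2r*, *Osbpl5* and *Ppp1r9a* of these had overlapping genotypes. A link between the letters and the differences was not tested. Capitals mark CACGTG and TGCCGC on either strand.
Plagl1: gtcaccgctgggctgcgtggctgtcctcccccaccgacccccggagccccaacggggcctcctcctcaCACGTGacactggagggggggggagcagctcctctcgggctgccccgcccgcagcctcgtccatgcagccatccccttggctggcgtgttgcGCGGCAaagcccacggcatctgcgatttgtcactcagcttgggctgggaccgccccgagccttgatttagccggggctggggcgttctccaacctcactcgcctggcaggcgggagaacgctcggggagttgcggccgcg

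*Phlda2* (probe set 10569437), a maternally expressed gene known as a brake on placental growth, had intensities of 265, 228 and 289 in *Bmal1*+/- and of 310.2, 307 and 335 in *Bmal1*-/- skin. The log2 fold change was 0.28 (adjusted p = 0.45 from limma, SE 0.10). *Dlk1* (probe set 10398319), a transmembrane protein with EGF-like repeats that holds back the differentiation of fat precursors, had 173, 232 and 235.2 in *Bmal1*+/- and 322, 245 and 254 in *Bmal1*-/- skin. The male *Bmal1*+/- mouse was the lowest and *Bmal1*-/- replicate 1 the highest, and the other 4 mice lay between 232 and 254. The log2 fold change of *Dlk1* was 0.34 (adjusted p = 0.51 from limma, SE 0.14), with values of 0.20 to 0.41 over the 17 other settings of the fit.

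In the *Igf2*-*H19* and *Kcnq1* cluster, which includes *Phlda2*, the genotypes overlapped for *Igf2* and *Cdkn1c*. *Igf2*, the fetal growth factor, had intensities of 465, 702 and 723 in *Bmal1*+/- and of 862, 608 and 755 in *Bmal1*-/- skin, a log2 fold change of 0.24 (SE 0.17, 95% interval -0.14 to 0.62, adjusted p = 0.72 from limma). As for *Dlk1*, the lowest mouse was the male one and the highest was *Bmal1*-/- replicate 1. Without the male mouse the log2 fold change of *Igf2* was 0.042. *Igf2r*, which lies in a cluster of its own on chromosome 17 and encodes the receptor that clears IGF2, had 999, 1006 and 957 against 973, 954 and 1059, a log2 fold change of 0.01 with a 95% interval of -0.13 to 0.15.

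*Cdkn1c*, which encodes the cyclin-dependent kinase inhibitor p57, had intensities of 829.8, 907 and 916 in *Bmal1*+/- and of 996, 847 and 1097 in *Bmal1*-/- skin, with overlapping ranges and a log2 fold change of 0.14 (adjusted p = 0.70 from limma, SE 0.09), which ran from 0.056 without *Bmal1*-/- replicate 3 to 0.24 without *Bmal1*-/- replicate 2. *Ascl2*, a basic helix-loop-helix factor of the placenta, was the only gene of the cluster whose *Bmal1*-/- values all lay below the *Bmal1*+/- values. They were 336, 304 and 319.6 against 288, 284 and 297, a log2 fold change of -0.14 (adjusted p = 0.65 from limma, SE 0.07). The other 3 genes of the cluster, the transporter gene *Slc22a18*, the potassium channel gene *Kcnq1* and the lipid-binding protein gene *Osbpl5*, had log2 fold changes between -0.03 and 0.03.

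**Figure D2:**
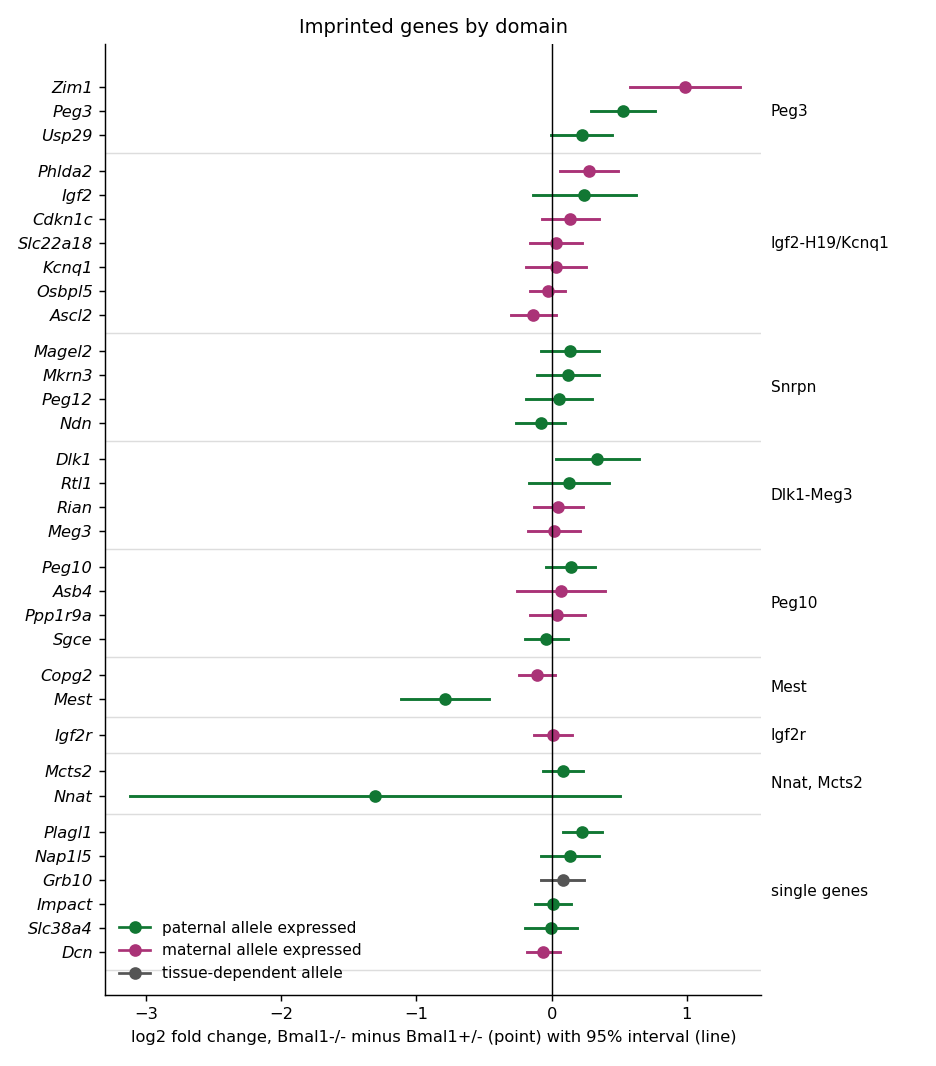
Log2 fold change, *Bmal1*-/- minus *Bmal1*+/- (horizontal axis, points), with its 95% interval from limma (lines) for the 33 imprinted genes, grouped by cluster at the right edge and coloured by the parental allele they are known to be expressed from. The 3 genes of the *Peg3* cluster lie to the right of 0, with 0.98 for *Zim1*, *Mest* lies at -0.79, and the interval of *Nnat* runs from -3.12 to 0.50.

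In the *Dlk1*-*Meg3* cluster, *Meg3*, a maternally expressed long noncoding RNA, had intensities of 1303, 1363 and 1521 in *Bmal1*+/- and of 1523, 1465 and 1260.5 in *Bmal1*-/- skin. Its log2 fold change was 0.02 with a 95% interval of -0.17 to 0.21. *Rian*, the noncoding RNA that follows *Meg3*, had 0.05 and *Rtl1*, a retrotransposon-derived gene expressed from the other allele, had 0.13, both within the spread between mice. *Dlk1* was therefore the only gene of that cluster whose genotypes separated.

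In the *Snrpn* cluster, the MAGE family genes *Ndn* and *Magel2* and the genes *Mkrn3* and *Peg12* had own probe sets. *Ndn*, which encodes necdin, had 1484, 1209 and 1224 in *Bmal1*+/- and 1209.7, 1263 and 1212 in *Bmal1*-/- skin, where only the male mouse stood apart. Its log2 fold change was -0.08 (SE 0.08), and 0.01 without that mouse. *Mkrn3*, a ubiquitin ligase gene known as a brake on puberty, was dim, with 68.9, 60.9 and 68.7 against 76.6, 70.2 and 73.0. Its *Bmal1*-/- values all lay above the *Bmal1*+/- values, with a log2 fold change of 0.12 (adjusted p = 0.77 from limma, SE 0.10). *Magel2* and *Peg12* had 0.14 and 0.06, with overlapping values.

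In the *Peg10* cluster, *Peg10*, a retrotransposon-derived gene needed for the placenta, had intensities of 209, 207 and 207 in *Bmal1*+/- and of 233, 216 and 244 in *Bmal1*-/- skin. The *Bmal1*+/- mice were nearly identical and all *Bmal1*-/- mice lay above them, yet the log2 fold change was only 0.14 (adjusted p = 0.65 from limma, SE 0.08). Its paternally expressed neighbour *Sgce*, which encodes epsilon-sarcoglycan, overlapped, with 1002, 889 and 874 against 900.0, 851 and 935 and a log2 fold change of -0.04 (SE 0.07). The maternally expressed *Asb4* and *Ppp1r9a* had 0.07 and 0.04.

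*Nnat*, which encodes the small membrane protein neuronatin, varied more between mice than any other of the 33 genes. Its intensity was 704, 329.7 and 1412 in *Bmal1*+/- mice, against 54.5, 337 and 925 in *Bmal1*-/- mice. The coefficient of variation was 67.4% in *Bmal1*+/- and 101.2% in *Bmal1*-/- skin, where the median over the 33 genes was 7.87% and 5.54% and that over all probe sets 7.99% and 7.04%. The log2 fold change of -1.31 had an SE of 0.81 and a 95% interval of -3.12 to 0.50, so that these mice do not tell a large decrease from an increase. It was -0.30 without *Bmal1*-/- replicate 1 and -2.17 without *Bmal1*-/- replicate 3. *Lep*, the adipocyte hormone leptin, had its lowest value, 86.3, in the same mouse, *Bmal1*-/- replicate 1, and 467 to 689 in the other 5. The 6 adipocyte markers summed to 12482 to 13260 in *Bmal1*+/- mice and to 12083 and 16010 in the other *Bmal1*-/- mice. Their sum in *Bmal1*-/- replicate 1 was 13534. Of these markers, *Plin1* and *Pparg* had their highest values there, 2311 and 1454, while *Adipoq*, *Cidec* and *Fabp4* had theirs in *Bmal1*-/- replicate 3. Among *Bmal1*+/- mice, the one with the highest *Nnat* had the lowest *Lep*, 493. The *Bmal1*-/- mice had the same order for both genes, with *Lep* at 86.3, 467 and 689. The part of adipocytes in the *Nnat* values was not tested.

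The remaining genes of the 33 had small differences. *Mcts2*, a retrogene of *Mcts1*, had 504, 487 and 465 in *Bmal1*+/- and 525, 512 and 510.3 in *Bmal1*-/- skin, a log2 fold change of 0.09 (SE 0.06). *Nap1l5*, another intronless gene, had 95.8, 110.4 and 108 against 122, 113 and 115, a log2 fold change of 0.14 (SE 0.10). *Dcn*, which encodes the abundant dermal proteoglycan decorin and is imprinted in the placenta, had 13144, 12422 and 12567 against 11698, 12612 and 12224, with a log2 fold change of -0.06 and a 95% interval of -0.18 to 0.06. The insulin receptor adaptor gene *Grb10*, the amino acid transporter gene *Slc38a4* and the translation regulator gene *Impact* had log2 fold changes of 0.08, -0.0036 and 0.01. In all, 27 of the 33 genes had a 95% interval within 0.5 of 0 on the log2 scale.

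The genotypes did not overlap for 12 of the 33 genes (36.4%), where 14.7% of all probe sets were so separated. For 10 of the 12 the *Bmal1*-/- mice were higher (30.3% of the 33, against 6.99% of all probe sets) and for *Mest* and *Ascl2* they were lower (7.68% of all probe sets). The 10 were *Zim1*, *Peg3*, *Usp29*, *Phlda2*, *Dlk1*, *Plagl1*, *Peg10*, *Mkrn3*, *Nap1l5* and *Mcts2*. The count depended on the scale of the arrays. With quantile normalization 7 were higher and 2 lower, without *Peg10*, *Mkrn3* and *Nap1l5*. Of all probe sets, 6.90% were then higher and 14.4% separated in either direction. With each array centred on its median 9 were higher and 2 lower, without *Mcts2*, beside 8.94% higher and 14.8% in either direction of all probe sets. The list was put together with earlier results of these data known, so these shares describe it and do not test it.

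Among the genes expressed from the paternal allele, 13 of 18 had a log2 fold change above 0, with a median of 0.12. Among those expressed from the maternal allele, 10 of 14 did, with a median of 0.033, and both counts stand beside the 54.7% of all probe sets above 0. In single mice, the median deviation of the 33 genes from their means was -0.059, -0.041 and -0.015 in *Bmal1*+/- and 0.040, 0.020 and 0.073 in *Bmal1*-/- mice on the log2 scale, while that of all probe sets was -0.024, -0.019 and 0.031 and then -0.010, 0.011 and 0.022. Of the 12 measured genes of the imprinted gene network, 8 had a log2 fold change above 0, again beside 54.7% of all probe sets, with a median of 0.051 and values from -0.79 for *Mest* to 0.53 for *Peg3*. The network genes did not all take the same direction.

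**Figure D3:**
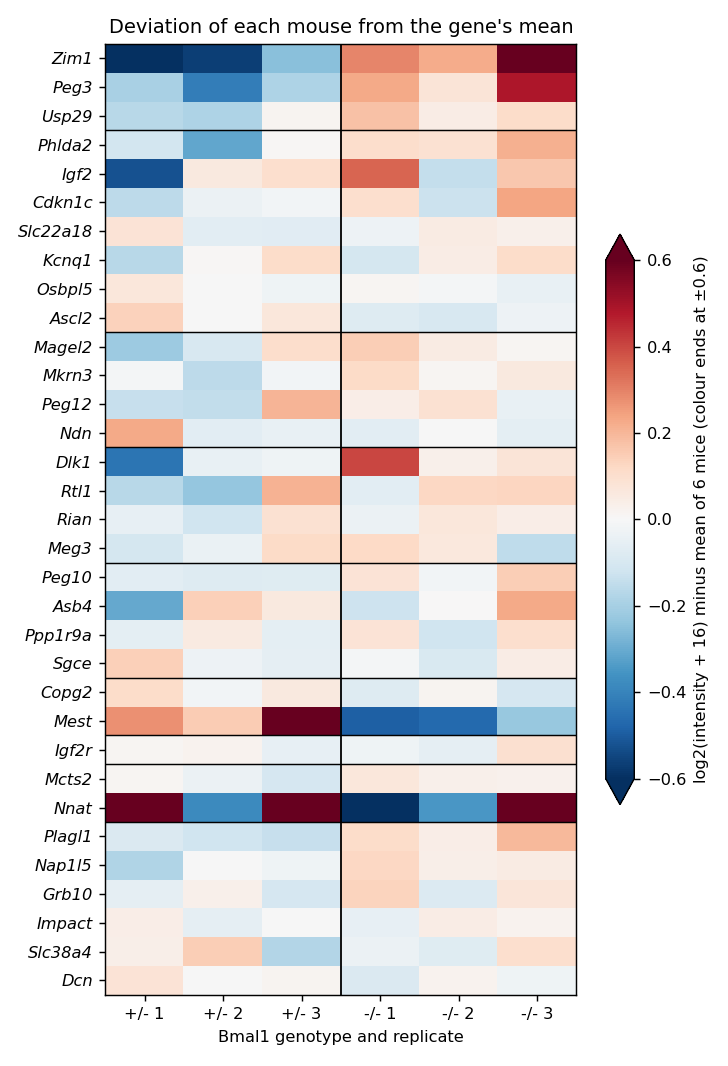
Deviation of each mouse (columns, 3 *Bmal1*+/- left and 3 *Bmal1*-/- right of the line) from the mean of the 6 mice in log2(intensity + 16), for the 33 imprinted genes (rows, by cluster, black lines between clusters), with colours ending at ±0.6. Red in the right block and blue in the left marks the *Peg3* cluster, *Mest* has the opposite pattern, and *Nnat* differs between mice of the same genotype.

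Other imprinted genes outside the 39 were read from a list of 39 further names, of which 32 were measured. At an adjusted p under 0.05 from limma none was called. At an unadjusted p under 0.05, 4 were higher and 3 lower, beside 4.17% and 4.6% of all probe sets. The median log2 fold change was 0.028. The smallest p of these genes was that of *Gatm*, the enzyme of the first step of creatine synthesis, whose imprinting is known from the placenta. It had 819.9, 884 and 815 in *Bmal1*+/- and 1336, 1121 and 1114 in *Bmal1*-/- skin, a log2 fold change of 0.49 (SE 0.08, unadjusted p = 0.00014, adjusted p = 0.056 from limma). *Zdbf2*, a paternally expressed zinc finger gene, had 73.0, 98.3 and 99.0 against 146, 117 and 156, a log2 fold change of 0.56 (adjusted p = 0.24, SE 0.14), *Cobl*, an actin nucleator gene, had 0.27 (adjusted p = 0.21, SE 0.06), and *Ano1*, a calcium-activated chloride channel gene, had -0.31 (adjusted p = 0.25, SE 0.08).

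Of 24 genes that set or keep imprints, 23 were measured and none was called. At an unadjusted p under 0.05 from limma 2 were lower and 0 higher, beside 4.6% and 4.17% of all probe sets. Their median log2 fold change was -0.046. *Tet1*, which oxidises methylated cytosine, had 309, 344 and 328 in *Bmal1*+/- and 229.8, 285 and 262 in *Bmal1*-/- skin, a log2 fold change of -0.32 (SE 0.09, unadjusted p = 0.0066, adjusted p = 0.33). *Uhrf1*, named because it is the other of the 2, which brings the maintenance methyltransferase to replicated DNA, had 392, 336 and 334 against 331, 263 and 149, with a log2 fold change of -0.55 (adjusted p = 0.52, SE 0.22). Of 21 partners and targets of the imprinted growth genes, 20 were measured and none was called. At an unadjusted p under 0.05, 2 were higher and 2 lower, beside 4.17% and 4.6% of all probe sets. *Igf1*, the growth factor that takes over from *Igf2* after birth, had 2343, 2437 and 2416 against 2099.8, 2119 and 2061, a log2 fold change of -0.20 (SE 0.05, unadjusted p = 0.0036, adjusted p = 0.26).

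Of the muscle precursor markers, *Myod1* and *Cdh15* separated the genotypes in the direction of the *Peg3* cluster genes, and *Myf5*, *Pax7* and *Myog* overlapped. *Peg3* is known from muscle stem cells, and whole dorsal skin holds the thin panniculus muscle. Of 5 markers, 0 were called at an adjusted p under 0.05 from limma. At an unadjusted p under 0.05 *Myod1*, *Cdh15* and *Myf5*, 3 of the 5, were higher, beside 4.17% of all probe sets. *Myod1*, the muscle determination factor, had 201, 266 and 236 in *Bmal1*+/- and 403, 355 and 536 in *Bmal1*-/- skin. Its log2 fold change was 0.82 (SE 0.15, unadjusted p = 0.00029, adjusted p = 0.085 from limma). For *Myod1* the order of the *Bmal1*-/- mice was that of *Zim1* and *Peg3*, and the order of the *Bmal1*+/- mice was that of neither. *Cdh15* had 0.23 (SE 0.09) and *Myf5* 0.28 (SE 0.12), while *Pax7*, the stem cell factor itself, had 0.06 (SE 0.11) and *Myog* 0.03 (SE 0.14). *Pax7*, *Myf5*, *Cdh15* and *Myog* averaged 118 to 161 over all mice, beside 333 for *Myod1*, and whether they were above background was not tested. The summed intensity of the 5 was 711 to 846 in *Bmal1*+/- and 928 to 1166 in *Bmal1*-/- mice, of which *Myod1* gave 201 to 266 and 355 to 536. The 7 markers of mature striated muscle summed to 55650 to 72783 and 58400 to 66155, with a median log2 fold change of 0.0028. The part of muscle precursors in the *Peg3* and *Zim1* values was not tested.

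**Figure D4:**
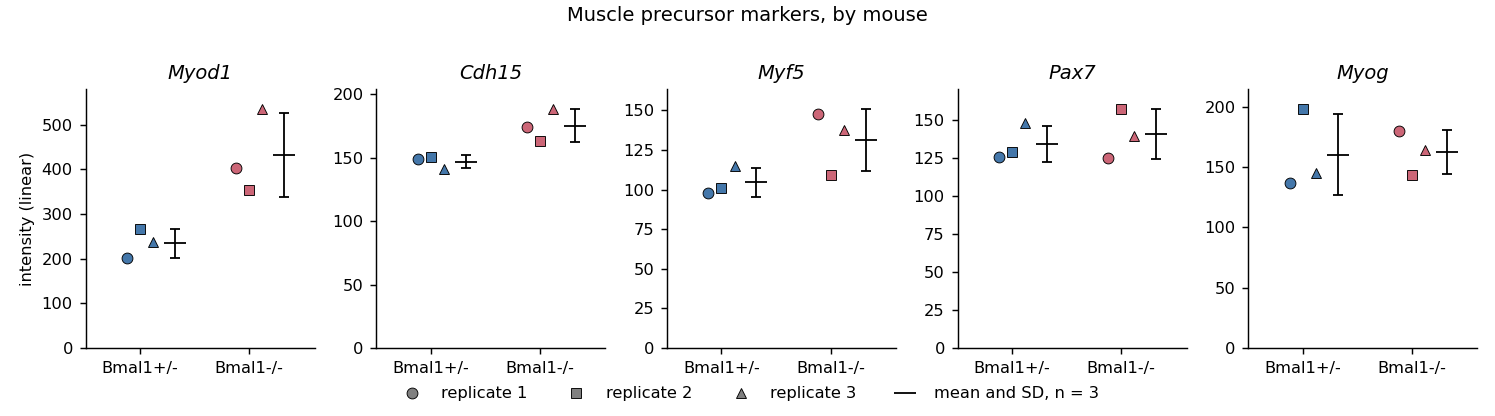
Deposited probe set intensity (vertical axis, linear, from 0) of the 5 muscle precursor markers in each mouse, drawn as in the plot of imprinted genes by mouse, with the mean and SD (n = 3) beside the points. *Myod1* and *Cdh15* separate the genotypes, *Myod1* with 201 to 266 in *Bmal1*+/- and 355 to 536 in *Bmal1*-/- skin, while *Pax7* and *Myog* overlap.

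The other marker lists had medians between -0.20 and 0.13. The 7 fibroblast markers summed to 62111 to 69044 in *Bmal1*+/- and 56111 to 63549 in *Bmal1*-/- mice, with a median log2 fold change of -0.15. The 6 adipocyte markers summed to 12482 to 13260 and 12083 to 16010, with a median of 0.13, the 6 epidermis markers to 49500 to 54856 and 47798 to 53485, and the 5 telogen follicle markers to 15188 to 16591 and 13650 to 15387, with a median of -0.20. The 6 growing follicle markers summed to 905 to 1351 and 957 to 1145, the 4 endothelium markers to 3012 to 3231 and 3128 to 4080, the 3 measured Schwann cell and nerve markers to 1011 to 1030 and 1004 to 1074, and the 5 leukocyte markers to 6553 to 6839 and 5512 to 6964. At an unadjusted p under 0.05, *Pparg*, *Lor* and *Flg2* were higher and *Vim*, *Col3a1* and *Cd34* lower, where 4.17% and 4.6% of all probe sets were. *Pparg*, the adipocyte transcription factor, had 1147, 1270.2 and 1155 in *Bmal1*+/- and 1454, 1379 and 1437 in *Bmal1*-/- skin, separated, with a log2 fold change of 0.26 (adjusted p = 0.22 from limma, SE 0.06). *Cd34*, a marker of the resting follicle bulge, had 5256, 5015 and 5231 against 4248, 4703 and 4036, also separated, with -0.26 (adjusted p = 0.24, SE 0.06). No marker of these lists was called at an adjusted p under 0.05. Their part in the values of the imprinted genes was not tested.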

How the data were processed

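Total RNA of dorsal skin from 6 mice was hybridised to 6 arrays, and groups were taken from the sample titles. The values the authors deposited are linear intensity summaries of probe sets. The submitters' processing notes name Affymetrix Expression Console 1.1 and PLIER 2.0, and the sources used here give neither the normalization nor a genome build. For the fit, log2(intensity + 16) was computed and 23410 probe sets with a gene symbol were fitted with limma 3.58.1 in R 4.3.3 (intensity trend, all 6 arrays, genotype as the term). The 21789 probe sets with 1 symbol could name a gene, by the brightest where a gene had several. The study's own test was Cyber-T, and a test of that type (window 101, prior weight 10) was an alternative. The fit was tested on simulated arrays. Mice are the replicates, and 3 per genotype limit the precision. The members and lists were chosen with earlier results of these data known. Values of every mouse are given for members with an unadjusted p under 0.05 or with separated genotypes and a mean of at least 64, and for the brightest of each cluster; *Igf2* was added after its values were seen. The labels used here name no pairs of mice, and correlations between the deviations of same-numbered mice cannot decide whether the numbers mark pairs. Promoters and microRNAs came from RefSeq tables. Figures were drawn with Python 3.11.15 and matplotlib 3.10.9.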

Additional observations from a re-analysis of the deposited data

How the results depend on the processing

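The 33 imprinted genes were fitted under 17 other settings, among them offsets of 1 and 64 in place of 16, quantile normalization, median centring, a sex term and the removal of single mice, and the unadjusted p under 0.001 was tried as another threshold. In 3 of these, 1 gene (*Mest*) was called lower and 2 (*Zim1* and *Peg3*) were called higher, namely with the Cyber-T type test, with the unadjusted threshold and with a replicate block. In the others 0 were called. Over the settings the adjusted p of *Zim1* ran from 0.00019 to 0.28, that of *Peg3* from 0.0039 to 0.30 and that of *Mest* from 0.00055 to 0.28. The labels used here name no pairs of mice. Deviations over all probe sets tested correlated at 0.078, -0.35 and 0.056 for same-numbered mice, and at -0.26 to 0.26 for the others. These correlations cannot decide whether the numbers mark pairs, since each deviation is from a mean of only 3 mice. With the replicate block the adjusted p from limma was 0.0070 for *Zim1*, 0.026 for *Mest* and 0.042 for *Peg3*. Over all probe sets, 31 were called lower and 23 higher, against 177 and 96 with the Cyber-T type test, 93 and 59 with the unadjusted threshold, 34 and 20 with the block, 19 and 15 with probe sets without a symbol included, and 16 and 11 without the intensity trend. Without single mice the calls were 22 to 34 lower and 13 to 23 higher, the fewest higher calls without *Bmal1*-/- replicate 3.

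The median log2 fold change of the 33 genes was 0.039 to 0.095 without single mice, the lowest without *Bmal1*+/- replicate 1 and the highest without *Bmal1*+/- replicate 3, and 0.084 without *Bmal1*-/- replicate 2. The direction held throughout for 24 of the 33 genes and turned in at least 1 setting for 9, all uncalled. With quantile normalization it turned for *Slc38a4* (0.0043) and *Asb4* (-0.0022), and with median centring for *Slc38a4* (0.0074). With a sex term it turned for *Meg3* (-0.028), *Ndn* (0.013), *Sgce* (0.021), *Slc38a4* (0.013), *Kcnq1* (-0.042) and *Asb4* (-0.067). Without single mice the log2 fold change was -0.034 to 0.040 for *Igf2r*, -0.035 to 0.10 for *Meg3*, -0.13 to 0.013 for *Ndn*, -0.076 to 0.021 for *Sgce*, -0.0029 to 0.17 for *Peg12*, -0.093 to 0.070 for *Slc38a4*, -0.013 to 0.039 for *Impact*, -0.042 to 0.095 for *Kcnq1* and -0.067 to 0.16 for *Asb4*. The cause of these differences was not tested. Since the only male was *Bmal1*+/- replicate 1, a sex term and leaving out that mouse give equal fold changes. On simulated arrays calls were made at this size of groups, but 3 mice per genotype leave intervals too wide to exclude small differences, and signal near the background understates them.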
